A study of Mus musculus with 20 samples.

Results

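The genes described here are 33 genes known for their roles in megakaryocytes, the large bone marrow cells that shed platelets, and in platelets themselves. They were chosen by name, as genes of platelet granules, adhesion receptors and signalling. The 34 symbols listed include both Cavin2 and its older name Sdpr, and all 33 genes were found among the 49568 symbols of each count table. Their RNA was measured by sequencing in 2 populations that flow cytometry had sorted from mouse bone marrow: multipotent progenitors (MPP), which still give rise to all blood lineages but renew themselves little, and long-term haematopoietic stem cells (LT-HSC), which renew themselves for life. The groups were Ahr-KO MPP, WT MPP, Ahr-KO LT-HSC and WT LT-HSC, with 5 libraries each and 20 in all. Ahr encodes the aryl hydrocarbon receptor, a ligand-activated transcription factor, and the stated interest of the series is in its target genes in stem cells. All mice were untreated and 8 to 12 weeks old, and every library carries the strain label C57BL/6. The labels give neither the Ahr allele nor the markers of the sort, and they do not say whether each library came from an animal of its own. The p-values below therefore measure the spread between libraries, which may be technical in part.

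Megakaryocytes arise from stem cells and fill their cytoplasm with granules, receptors and membrane before they release platelets. At a wound, von Willebrand factor and collagen hold platelets through glycoprotein receptors. Thrombin, ADP and thromboxane then act on receptors of their own and switch on the integrin that binds fibrinogen, while granules release chemokines and adhesive proteins. Stem cells already transcribe some of these genes, and part of the mouse stem cell pool that expresses Vwf is known for a bias towards platelets. In sorted bulk samples, fewer cells of a type and less RNA per cell cannot be told apart.

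Library totals ran from 13712668 to 21622653 counts, and levels are given as CPM, counts scaled to a common normalised library total. Transcripts of Ahr itself were present in all groups: they averaged 15.9 ± 3.91 CPM in Ahr-KO MPP and 9.80 ± 3.66 CPM in WT MPP, and 23.5 ± 4.14 CPM in stem cells labelled Ahr-KO and 26.5 ± 6.35 CPM in those labelled WT (SD, n = 5 each). Neither difference passed the test (edgeR adjusted p = 0.663 in MPP and 0.861 in LT-HSC), so the counts do not check the genotype labels, and directions are those between libraries as labelled. The population labels went with their markers, since all 9 LT-HSC markers were lower and 6 of 7 MPP markers higher in MPP in both genotypes (edgeR adjusted p under 0.05). WT LT-HSC 1 stood apart from the other WT LT-HSC libraries in genes of all lengths, with a Spearman correlation of -0.46 across 11624 genes between exonic length and its level relative to theirs. Ahr-KO LT-HSC 2 and 3 held 941.7 and 1410 CPM of 8 neutrophil markers, against 7.997 to 13.89 CPM in the other Ahr-KO LT-HSC libraries and 6.175 to 90.83 CPM in WT LT-HSC. Ahr-KO LT-HSC 3 also held 3744 CPM of stromal markers. The same 2 libraries held 2327 and 2543 CPM of monocyte and macrophage markers, against a range of 449.5 to 717.7 CPM among the remaining LT-HSC libraries, and 4797 and 5223 CPM of erythroid markers, against 2109 to 3851 CPM. Calls of members that changed without these libraries are named with the results, and the part of the foreign markers was not tested.

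Promoter windows of the 250 bases before the transcription start were taken from RefSeq (GRCm38.p6) and matched 27 of the 33 genes, all but Vwf, Thbs1, Itgb3, Rgs18, Gng11 and Nfe2. Windows of 4 genes are shown because the results turn on them. Pf4 and Ppbp are neighbouring chemokine genes on chromosome 5, of which Pf4 was called between Ahr-KO and WT MPP and Ppbp between the populations, and Gp9 and Gp5 encode partners in a single receptor and were lower in MPP in both genotypes. Each window is written 5′ to 3′ on the strand of its gene, and capitals mark the ETS core GGAAG and the GATA word AGATAA, or their reverse complements CTTCC and TTATCT.
Pf4, chr5:90772185-90772434, plus strand: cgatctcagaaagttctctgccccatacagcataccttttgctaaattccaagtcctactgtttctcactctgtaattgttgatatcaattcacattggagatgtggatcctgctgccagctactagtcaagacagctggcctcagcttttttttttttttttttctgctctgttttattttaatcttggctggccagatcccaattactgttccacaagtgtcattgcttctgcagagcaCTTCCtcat
Ppbp, chr5:90768268-90768517, plus strand: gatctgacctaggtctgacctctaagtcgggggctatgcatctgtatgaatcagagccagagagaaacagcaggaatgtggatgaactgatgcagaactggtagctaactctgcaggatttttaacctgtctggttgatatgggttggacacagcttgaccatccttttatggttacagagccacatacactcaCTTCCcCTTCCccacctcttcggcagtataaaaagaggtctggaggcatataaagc
Gp9, chr6:87777820-87778069, plus strand: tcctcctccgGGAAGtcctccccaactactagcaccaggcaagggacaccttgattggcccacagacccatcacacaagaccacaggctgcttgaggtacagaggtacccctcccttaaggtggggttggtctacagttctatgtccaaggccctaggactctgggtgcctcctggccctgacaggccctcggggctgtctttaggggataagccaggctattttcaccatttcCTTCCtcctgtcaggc
Gp5, chr16:30310782-30311031, minus strand: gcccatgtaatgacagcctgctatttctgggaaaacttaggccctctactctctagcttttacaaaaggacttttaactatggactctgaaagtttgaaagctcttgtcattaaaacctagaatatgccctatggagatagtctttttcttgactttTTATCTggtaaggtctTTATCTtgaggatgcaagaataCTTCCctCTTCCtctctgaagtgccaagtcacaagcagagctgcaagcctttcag

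ETS factors and GATA factors are the main classes of transcription factor known to drive megakaryocyte genes. The last base of the ETS core in the Pf4 window lay 5 bases before the start, and the Ppbp window held 2 such cores, 52 and 46 bases before it. The Gp9 window held 2 ETS cores (236 and 12 bases before the start), and the Gp5 window held 2 GATA words (88 and 72 bases) followed by 2 ETS cores (51 and 44 bases). Searched on both strands in all 27 member windows, GGAAG was found in 20 (74.1%, against 63.6% of 27025 RefSeq windows), and AGATAA in 5 (18.5%, against 10.3%). The core of the AHR response element, GCGTG, was found in 5 (18.5%, against 28.2%), and in none of the 4 windows shown. A word for NF-E2, the factor that Nfe2 helps form, was in 0 of the 27, against 0.118% of all windows. No motif overlapped another in the windows shown. These are matches of letters in a short window, not measured sites.

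Levels of the 33 genes spanned a wide range within every group. Per kilobase of exon, the transcription factor gene Nfe2, which megakaryocytes need to form platelets, averaged 118 CPM per kb in Ahr-KO MPP, 122 in WT MPP, 176 in Ahr-KO LT-HSC and 207 in WT LT-HSC. Rap1b, the GTPase that switches on platelet integrins, averaged 102, 118, 154 and 153 CPM per kb in the same order of groups. Pf4, encoding the granule chemokine platelet factor 4, had the highest level per kb of all members in WT MPP, 163 ± 21.3 CPM per kb (SD, n = 5), against 69.8 ± 21.1 in Ahr-KO MPP. Ppbp, the neighbour of Pf4, averaged only 1.38 CPM per kb in Ahr-KO MPP and 1.86 in WT MPP. Gp6, the collagen receptor gene, was at 0 in 13 of 20 libraries and reached at most 6 raw counts, so it was never tested. Clec1b, Alox12, Tubb1 and Itga2 averaged under 5 CPM in every group and are imprecise. Exons of Gp1bb overlap those of Sept5 and exons of Clec1b those of Clec9a on the same strand. The kit does not mark strand. Exons of Thbs1, Selp, Cd9, P2ry1, Plek, Mrvi1, Ptgs1 and Tbxas1 partly overlap those of genes on the opposite strand. Reads from the overlapping bases, from 108 in Mrvi1 to 992 in P2ry1, cannot be told apart. Summed over all members, levels ran from 1730 to 2285 CPM in Ahr-KO MPP, 2024 to 2520 CPM in WT MPP, 3338 to 4277 CPM in Ahr-KO LT-HSC and 3872 to 4302 CPM in WT LT-HSC, so that no MPP library reached the LT-HSC range.

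**Figure D1:**
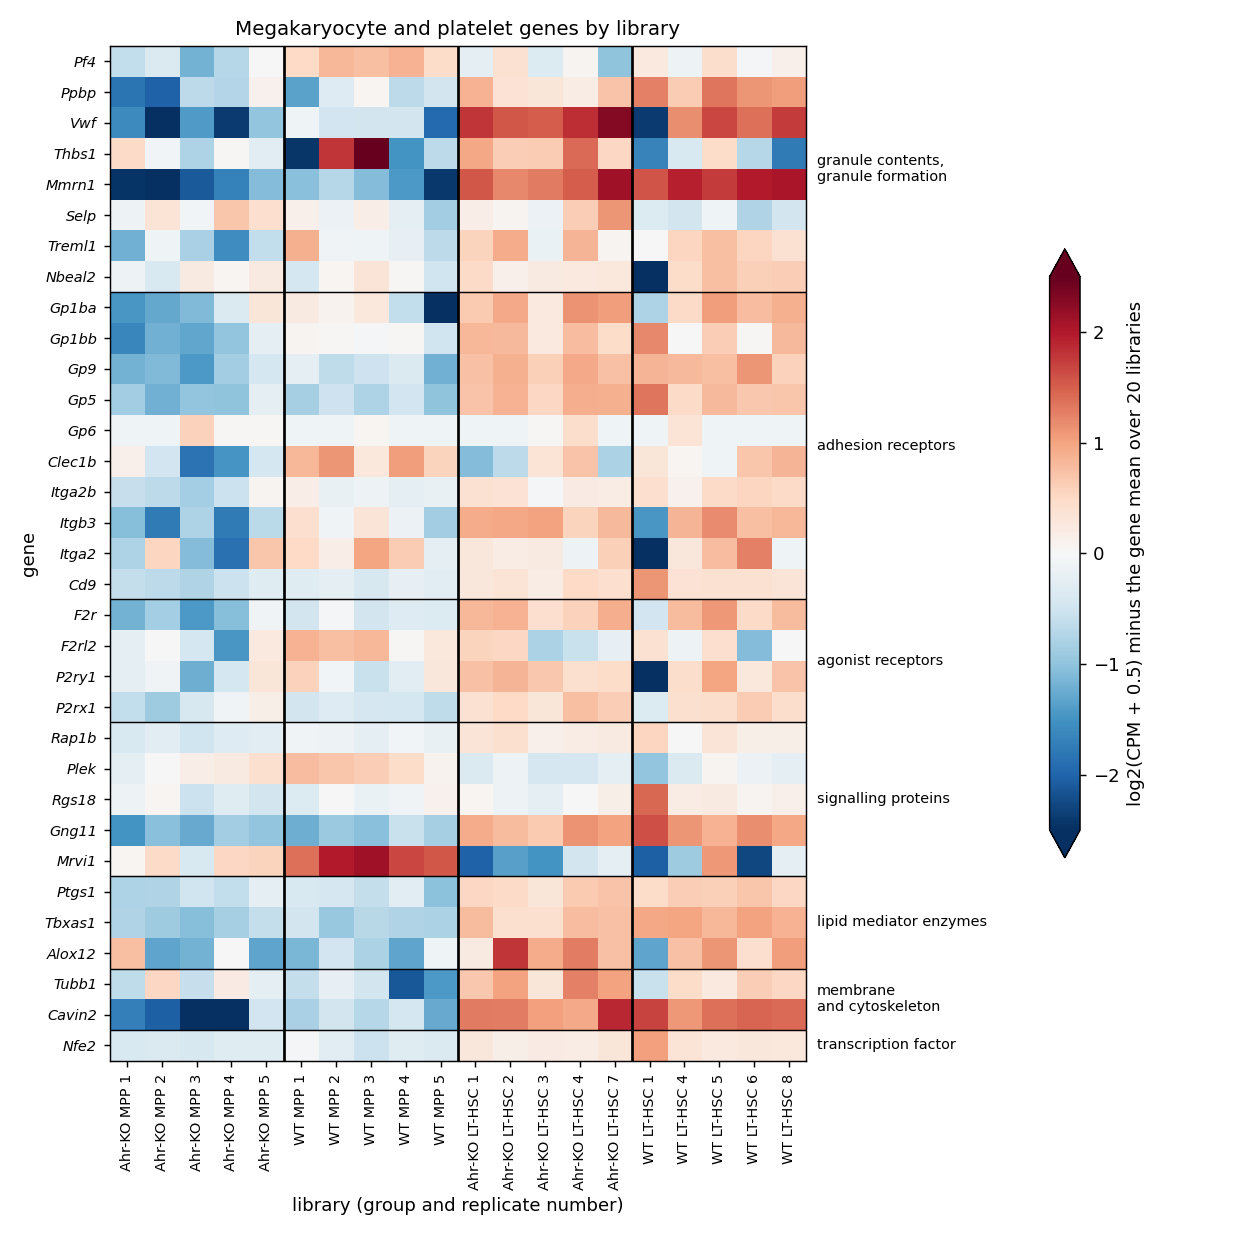
Each row is a member and each column a library, with rows ordered by role and columns by group. Colour gives log2(CPM + 0.5) minus the mean of that gene over the 20 libraries, and most rows are blue in MPP and red in LT-HSC, while Plek and Mrvi1 go the other way. WT LT-HSC 1 departs from its group in Vwf, Nbeal2, Itgb3 and P2ry1.

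The first comparison asked which megakaryocyte and platelet genes differ between Ahr-KO and WT MPP. Pf4 was 2.34-fold lower in Ahr-KO MPP and was the only member that passed the test, where 0.0124% of all genes were called lower and 0.0187% higher. Of the 31 members tested, 27 had a negative log2 fold change, with a median of -0.42, while 49.1% of all 16077 genes were negative, with a median of 0.005. Members that leaned low without passing included the fibrinogen receptor gene Itgb3, the von Willebrand factor gene Vwf and the calcium regulator gene Mrvi1. Over all genes edgeR called 5, or 0.0311%. At an unadjusted p under 0.05 there were 15 of 31 members, against 6.62% of all genes. In 4 members, Pf4, Mrvi1, Clec1b and Rap1b, every Ahr-KO library lay below every WT library, against 0.56% of all genes. Alox12 and Gp6 did not pass the filter on low counts.

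Among the granule genes, Pf4 had 47.1, 56.4, 31.8, 44.0 and 72.6 CPM in Ahr-KO MPP 1 to 5, against 103, 129, 122, 133 and 99.8 CPM in WT MPP 1 to 5. The groups did not overlap, and Ahr-KO MPP 5 came closest to WT. Its log2 fold change was -1.22 ± 0.18 (SE, edgeR adjusted p = 0.0491), with means of 50.4 ± 15.2 CPM in Ahr-KO and 117 ± 15.3 CPM in WT (SD, n = 5 each). Pf4 lies on chromosome 5 from 90772435 to 90773383 (GRCm38). Vwf, whose long multimers tether platelets to collagen, had 19.3, 8.64, 21.9, 10.96 and 29.8 CPM in Ahr-KO MPP, against 55.3, 42.8, 43.4, 43.1 and 15.2 CPM in WT MPP. All but WT MPP 5 of the WT libraries lay above all Ahr-KO libraries, and the difference of -1.14 ± 0.35 did not pass (SE, edgeR adjusted p = 0.591). Ppbp, encoding the precursor of a neutrophil-attracting chemokine, had 0.491, 0.3599, 1.73, 1.62 and 3.28 CPM in Ahr-KO MPP, against 0.886, 2.29, 3.14, 1.71 and 2.04 CPM in WT MPP. These low values overlapped throughout (log2 fold change -0.42 ± 0.54, edgeR adjusted p = 0.907). Selp, encoding the granule membrane protein P-selectin, leaned the other way, with 31.9, 43.7, 33.1, 56.5 and 46.5 CPM in Ahr-KO MPP and 37.9, 31.3, 38.7, 29.4 and 18.6 CPM in WT MPP. Its groups overlapped (0.44 ± 0.20, edgeR adjusted p = 0.747).

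The other granule genes did not pass. Thbs1, encoding the adhesive protein thrombospondin 1, was uneven among the WT libraries, with 4.02, 83.7, 247, 8.13 and 15.1 CPM in WT MPP 1 to 5, against 13.8 to 33.6 CPM in Ahr-KO MPP. Mmrn1, whose product multimerin 1 binds factor V in granules, averaged 47.3 ± 23.7 CPM in Ahr-KO and 75.6 ± 28.1 CPM in WT MPP (SD, n = 5 each). Treml1, encoding a receptor of the granule membrane, averaged 3.76 ± 1.65 CPM in Ahr-KO and 7.07 ± 3.36 CPM in WT. Nbeal2, needed to build alpha granules, stood at 139 ± 24.2 CPM in Ahr-KO and 131 ± 31.3 CPM in WT.

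All 9 adhesion receptor genes tested had negative fold changes in MPP, and none passed. Itgb3, the beta chain of the fibrinogen receptor, had 17.9, 10.7, 21.7, 10.7 and 23.4 CPM in Ahr-KO MPP, against 50.4, 35.6, 47.3, 34.2 and 20.5 CPM in WT MPP. The overlap came from WT MPP 5, which lay below Ahr-KO MPP 3 and 5 (log2 fold change -1.15 ± 0.27, SE, edgeR adjusted p = 0.481). Itga2b, the alpha chain of the same receptor and an early megakaryocyte marker, had 144, 136, 118, 148 and 226 CPM in Ahr-KO MPP, against 242, 189, 198, 185 and 188 CPM in WT MPP. Here Ahr-KO MPP 5 alone reached the WT range (-0.38 ± 0.15, edgeR adjusted p = 0.663). Gp1bb, a chain of the von Willebrand factor receptor, had 2.95, 4.10, 3.82, 4.90 and 8.43 CPM in Ahr-KO MPP, against 10.6, 10.3, 9.99, 10.4 and 6.997 CPM in WT MPP. Ahr-KO MPP 5 and WT MPP 5 again made the overlap (-0.996 ± 0.27, edgeR adjusted p = 0.554). Cd9, a tetraspanin of the platelet surface, had 74.9, 71.5, 67.4, 77.9 and 91.5 CPM in Ahr-KO MPP, against 91.5, 97.6, 85.6, 98.0 and 94.0 CPM in WT MPP, and Ahr-KO MPP 5 was the single Ahr-KO library inside the WT range (-0.29 ± 0.09, edgeR adjusted p = 0.614).

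Of the remaining receptors in MPP, Gp1ba, the ligand-binding chain of the same complex, averaged 5.54 ± 3.38 CPM in Ahr-KO and 7.45 ± 4.07 CPM in WT, and Gp9 averaged 10.3 ± 2.94 CPM in Ahr-KO and 13.8 ± 3.29 CPM in WT (SD, n = 5 each). Gp5 was at 22.8 ± 6.86 CPM in Ahr-KO and 24.5 ± 3.85 CPM in WT. Clec1b, encoding the podoplanin receptor CLEC-2, lay between 0 and 1.47 CPM in Ahr-KO and between 1.66 and 3.38 CPM in WT, on 52 and 238 raw counts in all. F2r, encoding a thrombin receptor, averaged 61.3 ± 24.9 CPM in Ahr-KO and 88.6 ± 11.1 CPM in WT, and F2rl2, its relative that serves mouse platelets as a thrombin cofactor, 8.28 ± 3.27 CPM in Ahr-KO and 15.4 ± 3.83 CPM in WT. P2rx1, an ATP-gated channel, was at 44.6 ± 12.6 CPM in Ahr-KO and 40.8 ± 3.33 CPM in WT.

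Among the signalling genes of MPP, Mrvi1, whose product restrains calcium release in platelets under cyclic GMP, had 2.04, 2.88, 1.38, 2.98 and 3.09 CPM in Ahr-KO MPP, against 5.86, 9.11, 10.1, 7.25 and 6.67 CPM in WT MPP. The groups lay clear of each other, and the difference of -1.66 ± 0.27 missed the threshold (SE, edgeR adjusted p = 0.0875). Rap1b lay between 262 and 312 CPM in Ahr-KO and between 321 and 353 CPM in WT. Plek, encoding pleckstrin, the main kinase substrate of activated platelets, averaged 168 ± 26.7 CPM in Ahr-KO and 223 ± 39.0 CPM in WT (SD, n = 5 each). Rgs18, which shortens G protein signals, averaged 185 ± 31.2 CPM in Ahr-KO and 209 ± 24.9 CPM in WT, and the G protein subunit gene Gng11 16.4 ± 2.77 CPM in Ahr-KO and 19.1 ± 3.34 CPM in WT. The enzyme genes Ptgs1 and Tbxas1 had means of 68.9 and 77.5 CPM in Ahr-KO, against 70.8 and 82.6 CPM in WT. Cavin2, encoding a membrane-shaping protein, averaged 9.17 ± 7.33 CPM in Ahr-KO and 18.5 ± 4.0 CPM in WT. Nfe2 was at 353 ± 11.3 CPM in Ahr-KO and 365 ± 45.0 CPM in WT.

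**Figure D2:**
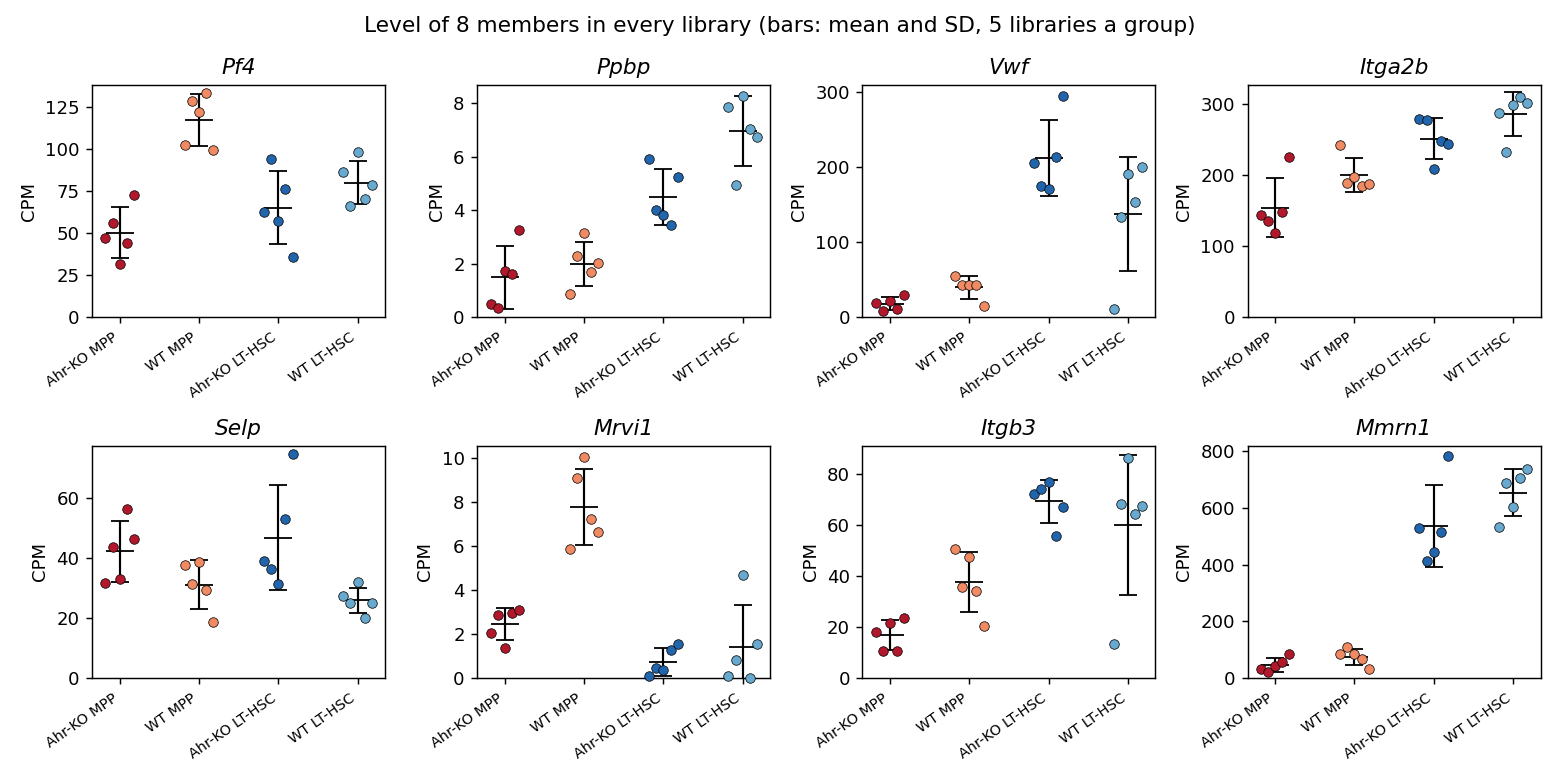
Points are single libraries in CPM for 8 members, with Ahr-KO MPP, WT MPP, Ahr-KO LT-HSC and WT LT-HSC from left to right in each panel, and bars give the mean and SD of 5 libraries. Pf4 and Mrvi1 in Ahr-KO MPP lie below every WT MPP library, while Vwf, Mmrn1 and Itgb3 are lower in MPP than in LT-HSC apart from the low point of WT LT-HSC 1 in Vwf and Itgb3.

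The libraries numbered 5 stood apart within the MPP groups. Of 30 members, 23 had their highest Ahr-KO MPP value in Ahr-KO MPP 5, whose members summed to 2285 CPM against 1730 to 1925 CPM in the other Ahr-KO MPP libraries. Its LT-HSC markers were also the highest of the MPP libraries, at 489.3 CPM. In WT MPP 5, 16 of 30 members had their lowest WT MPP value, and the members summed to 2024 CPM against 2314 to 2520 CPM in WT MPP 1 to 4. Such shares over all genes were not counted, so the counts in these libraries do not set the members apart from other genes. Exonic length correlated with the relative level across all genes at 0.372 in Ahr-KO MPP 5 and at -0.396 in WT MPP 5 (Spearman). Members up to 3.336 kb had a median of -0.42 and longer members of -0.54. The part of length and of stem cell transcripts in the comparison was not tested. Without Ahr-KO MPP 5 the median of all members was -0.59 with 28 of 31 negative, and without WT MPP 5 it was -0.50 with 28 negative.

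The Pf4 call sat close to the threshold. It was lost without Ahr-KO MPP 1, 2, 3 or 4 (edgeR adjusted p = 0.168, 0.129, 0.0943 and 0.154) and without each of WT MPP 1 to 5 (0.125, 0.191, 0.190, 0.153 and 0.113), while without Ahr-KO MPP 5 it held at 0.0334. Its log2 fold change stayed between -1.39 and -1.10 in these fits. DESeq2, which called 0.311% of all genes, called Pf4, Itgb3 and Mrvi1 lower, with adjusted p-values of 5.95e-07, 0.0150 and 1.26e-05. Of the regulators of megakaryocytes, none of 16 passed in MPP with edgeR. The smallest p was that of Gfi1b, a repressor needed for platelet formation, at 62.4 CPM in Ahr-KO (log2 fold change -0.51 ± 0.12, edgeR adjusted p = 0.502). None of 46 other platelet genes tested passed with edgeR, with the smallest p for the kinase gene Lyn (-0.44 ± 0.10, edgeR adjusted p = 0.342). DESeq2 called Gfi1b and Lyn lower, with adjusted p-values of 0.0480 and 0.0204. Neither list leaned low as the members did. The median log2 fold change was 0.006 in the 16 regulators and -0.046 in the 46 other platelet genes.

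**Figure D3:**
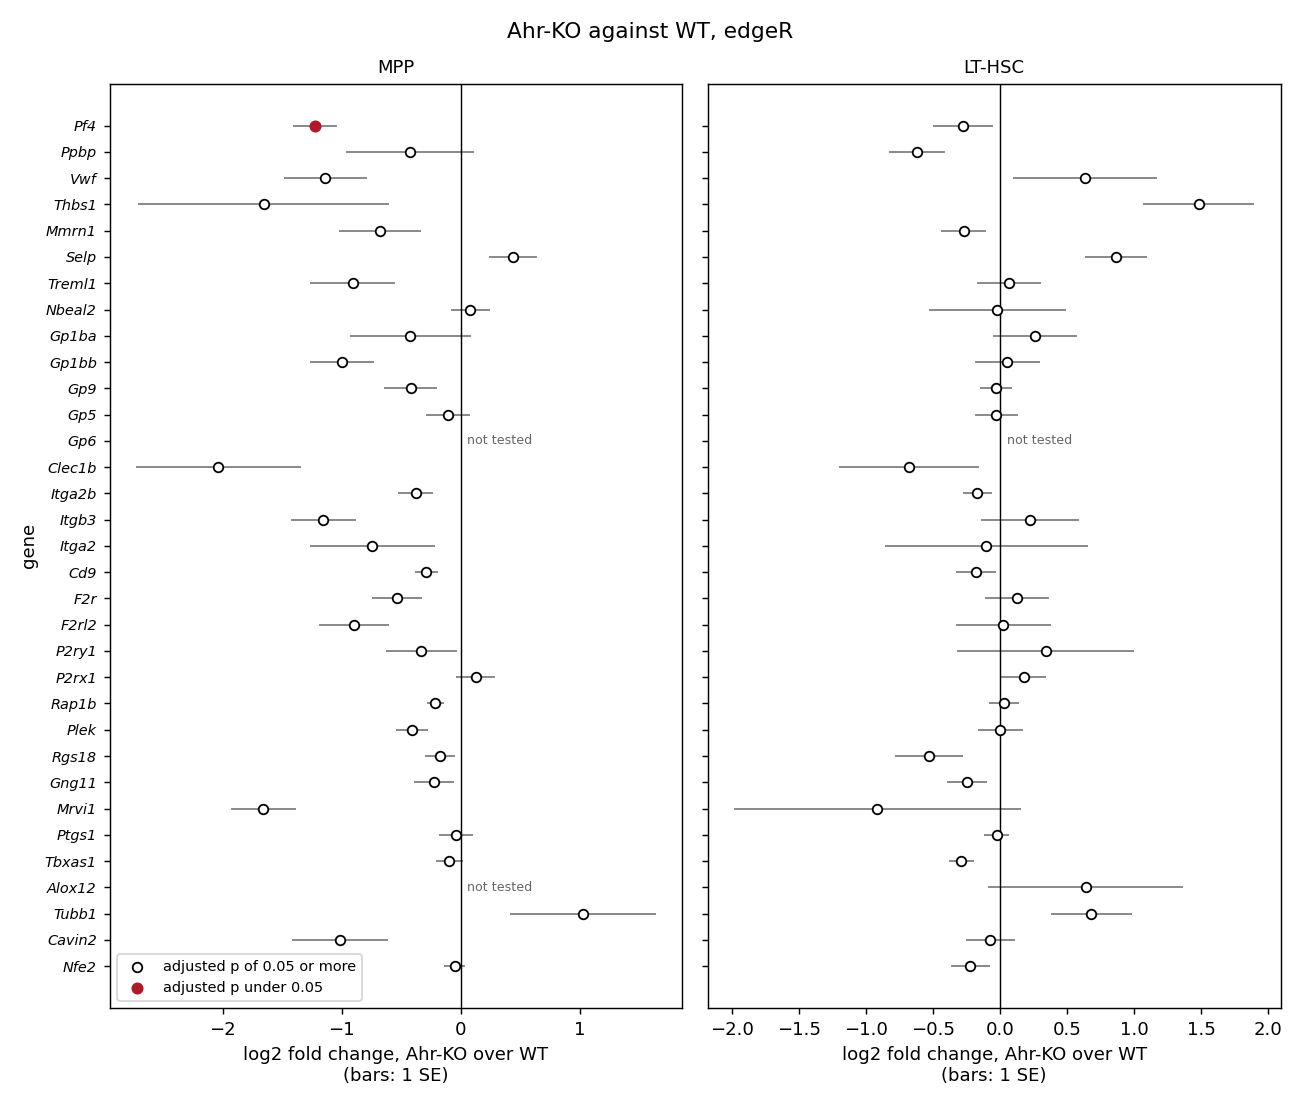
Points give the log2 fold change of each member, Ahr-KO over WT, in MPP on the left and in LT-HSC on the right, with bars of 1 SE and filled points at an edgeR adjusted p under 0.05. In MPP 27 of 31 points lie left of 0 and Pf4 is filled, while in LT-HSC 17 of 32 lie left of 0 and none is filled.

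The same comparison in LT-HSC gave no call among the members. Of 32 tested, 15 had positive and 17 negative log2 fold changes, with a median of -0.02, while 49.9% of all genes were negative. Selp and Thbs1 leaned high in Ahr-KO LT-HSC, and the thromboxane synthase gene Tbxas1 and Ppbp leaned low. Over all 16065 genes edgeR called 1, or 0.00622%, and 5 members reached an unadjusted p under 0.05, against 8.85% of all genes. Every Ahr-KO library lay above every WT library in 1 member, Thbs1 (2.23% of all genes), and below in 1, Tbxas1 (1.41% of all genes).

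In Ahr-KO LT-HSC 1, 2, 3, 4 and 7 Selp had 39.0, 36.2, 31.3, 53.1 and 74.7 CPM, against 27.3, 25.1, 31.96, 20.2 and 24.9 CPM in WT LT-HSC 1, 4, 5, 6 and 8. Only Ahr-KO LT-HSC 3 lay inside the WT range, and the log2 fold change was 0.87 ± 0.23 (SE, edgeR adjusted p = 0.433). Thbs1 had 47.5, 36.7, 37.1, 64.8 and 34.4 CPM in Ahr-KO LT-HSC, against 7.13, 18.2, 33.2, 14.3 and 6.70 CPM in WT LT-HSC. The groups did not overlap, though Ahr-KO LT-HSC 7 and WT LT-HSC 5 lay close together (1.48 ± 0.41, edgeR adjusted p = 0.460). DESeq2, which called 0.927% of all genes, called both, with adjusted p-values of 0.0493 for Selp and 0.0396 for Thbs1.

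Tbxas1, encoding the enzyme that makes thromboxane, had 236, 181, 181, 234 and 228 CPM in Ahr-KO LT-HSC, against 266, 269.7, 245, 274 and 251 CPM in WT LT-HSC. The groups did not overlap, and the difference was small (-0.29 ± 0.10, edgeR adjusted p = 0.506). Ppbp had 5.93, 4.003, 3.82, 3.47 and 5.27 CPM in Ahr-KO LT-HSC, against 7.89, 4.94, 8.29, 7.06 and 6.74 CPM in WT LT-HSC, with WT LT-HSC 4 inside the Ahr-KO range (-0.62 ± 0.21, edgeR adjusted p = 0.509). Tubb1, the tubulin of the ring that shapes the platelet, had 3.35, 4.35, 2.46, 5.25 and 4.36 CPM in Ahr-KO LT-HSC, against 1.14, 2.81, 2.34, 3.18 and 2.97 CPM in WT LT-HSC. These ranges overlapped (0.68 ± 0.30, edgeR adjusted p = 0.560). Rgs18 had 229, 204, 188, 225 and 245 CPM in Ahr-KO LT-HSC, against 604, 253, 261, 233 and 243 CPM in WT LT-HSC. The high value was that of WT LT-HSC 1 alone, and the log2 fold change of -0.53 ± 0.25 (edgeR adjusted p = 0.571) was -0.17 without that library.

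Pf4 had 62.5, 94.2, 57.1, 76.6 and 36.2 CPM in Ahr-KO LT-HSC, against 86.3, 66.2, 98.4, 70.4 and 79.0 CPM in WT LT-HSC, and the groups overlapped (-0.28 ± 0.22, SE, edgeR adjusted p = 0.762). Vwf had 206, 175, 171, 214 and 295 CPM in Ahr-KO LT-HSC, against 10.97, 134, 191, 154 and 200.5 CPM in WT LT-HSC. WT LT-HSC 1 lay far below the other libraries, and the log2 fold change of 0.63 ± 0.54 (edgeR adjusted p = 0.777) became 0.34 without it. Itga2b had 279, 278, 209, 248 and 244 CPM in Ahr-KO LT-HSC, against 287, 233, 298, 310.3 and 301 CPM in WT LT-HSC, again with overlap (-0.17 ± 0.11, edgeR adjusted p = 0.692). By role, 4 of 8 granule genes, 6 of 9 adhesion receptor genes, 0 of 4 agonist receptor genes and 3 of 5 signalling genes had negative fold changes.

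Vwf and Selp are also transcribed by endothelial cells. Summed endothelial markers ran from 37.47 to 62.81 CPM in Ahr-KO MPP and 39.28 to 55.44 CPM in WT MPP, and from 131.8 to 181.2 CPM in Ahr-KO LT-HSC and 118.6 to 186.5 CPM in WT LT-HSC. Their part in the Vwf and Selp values was not tested. In LT-HSC most of this sum of 8 genes was Tek, which stem cells also express, at 81.9 to 123 CPM in Ahr-KO and 80.1 to 139 CPM in WT. Sox18 ran from 7.56 to 14.6 CPM in Ahr-KO LT-HSC, above its 3.87 to 6.89 CPM in WT LT-HSC, and Kdr from 8.23 to 19.4 CPM, against 3.37 to 12.4 CPM. Cldn5, Cdh5 and Sox17 reached at most 2.82, 1.53 and 0.198 CPM in any library. Without Ahr-KO LT-HSC 2 and 3, the libraries with neutrophil markers, no member was called either and the median was 0.02. Without WT LT-HSC 1, 203 genes were called over all genes and no member was. None of the 16 regulators passed, with Gata1, the master factor of the lineage, at 64.8 CPM in Ahr-KO (0.55 ± 0.19, edgeR adjusted p = 0.509, and 0.0394 without WT LT-HSC 1). None of 46 other platelet genes passed either, with the smallest p for Bin2, a platelet membrane-curving protein gene (-0.29 ± 0.08, edgeR adjusted p = 0.460).

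Whether the Ahr-KO difference itself differed between MPP and LT-HSC was tested directly, as the log2 fold change in MPP minus that in LT-HSC. No member passed and 0 of 17416 genes did (0%, edgeR, adjusted p under 0.05), with 1125 genes at an unadjusted p under 0.05, and DESeq2 called 51 genes (0.293%) and 0 members. Of 32 members, 23 had a negative difference, with a median of -0.39 against 0.015 over all genes. The share of all genes with a negative difference was not counted. An unadjusted p under 0.05 was reached by 6 members, against 6.46% of all genes. The smallest p-values were those of Pf4 (-0.93 ± 0.31, SE, edgeR adjusted p = 0.588), Thbs1 (-3.12 ± 1.09, edgeR adjusted p = 0.603) and Itgb3 (-1.36 ± 0.49, edgeR adjusted p = 0.629). For Thbs1 the size rests on WT MPP 2 and 3, at 83.7 and 247 CPM. The effect of Ahr-KO on Pf4 is thus not shown to differ between the populations. Among the other genes of the pathway the smallest p-values were those of Ldb1, a cofactor of GATA factors (0.30 ± 0.10, edgeR adjusted p = 0.598), and Lyn (-0.55 ± 0.17, edgeR adjusted p = 0.553).

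The comparison of MPP with LT-HSC within each genotype asked which of these genes differ between the stem cell and its progeny. Platelet genes were mostly lower in MPP in both genotypes. In Ahr-KO, 19 of 32 members were called, all lower, and 10.7% of all 17416 genes were called lower (23.2% called in either direction). In WT, 19 of 32 were called, 17 lower and 2 higher, and 11.3% of all genes were called lower and 11% higher (22.3% in either direction). The median log2 fold change of the members was -1.03 in Ahr-KO and -0.73 in WT, and 30 members were negative in Ahr-KO (48.9% of all genes) and 24 in WT (49% of all genes). The lower calls shared 15 genes, which are 78.9% of those in Ahr-KO and 88.2% of those in WT. How far the lower calls over all genes were shared was not counted, so this overlap is not shown to be particular to the members. Every MPP library lay below every LT-HSC library in 18 members in Ahr-KO (10.4% of all genes) and in 11 in WT (8.09%). The reverse held for 0 members in Ahr-KO (11.1% of all genes) and for 3 in WT, Plek, Mrvi1 and Pf4 (8.32%).

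Granule genes held the largest fall in each genotype, Vwf in Ahr-KO and Mmrn1 in WT, although only 4 of 8 granule genes were called lower in Ahr-KO and 3 of 8 in WT. Mmrn1 had 32.3, 23.2, 41.5, 55.3 and 84.0 CPM in Ahr-KO MPP 1 to 5, against 527, 414, 442, 513 and 780.2 CPM in Ahr-KO LT-HSC. It had 86.5, 109, 83.7, 66.1 and 33.2 CPM in WT MPP 1 to 5, against 532, 688, 602, 706 and 735 CPM in WT LT-HSC. The populations lay far apart in both genotypes, 11.3-fold in Ahr-KO (log2 fold change -3.50 ± 0.33, SE, edgeR adjusted p = 3.32e-07) and 8.63-fold in WT (-3.11 ± 0.32, adjusted p = 1.10e-06). Vwf, with the values given above, fell by 3.55 ± 0.54 on the log2 scale in Ahr-KO (edgeR adjusted p = 7.55e-05), where the populations did not overlap. In WT it fell by 1.79 ± 0.50 (edgeR adjusted p = 0.0134), and WT LT-HSC 1 lay below every WT MPP library. The WT call of Vwf was lost without the filter on low counts (edgeR adjusted p = 0.0531) and with only WT libraries in the fit (0.0559), and without WT LT-HSC 1 the fall was 2.09 ± 0.33 (1.42e-04). Ppbp fell by 1.56 ± 0.43 in Ahr-KO (edgeR adjusted p = 0.0123) and by 1.79 ± 0.43 in WT (0.00488), without overlap in either.

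In the fit of all 20 libraries Pf4 was called in neither genotype. It averaged 50.4 ± 15.2 CPM in Ahr-KO MPP and 65.3 ± 21.7 CPM in Ahr-KO LT-HSC, a difference that did not pass (log2 fold change -0.38 ± 0.22, SE, edgeR adjusted p = 0.236). In WT it averaged 117 ± 15.3 CPM in MPP and 80.1 ± 12.8 CPM in LT-HSC (SD, n = 5 each), and every MPP library lay above every LT-HSC library. This WT difference of 0.55 ± 0.22 missed the threshold (edgeR adjusted p = 0.0754) and passed it with only WT libraries in the fit (0.0228). Ppbp lies just upstream of Pf4 on the same strand, on chromosome 5 from 90768518 to 90770063 (GRCm38).

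Selp passed in neither genotype, with log2 fold changes of -0.14 ± 0.23 in Ahr-KO (SE, edgeR adjusted p = 0.717) and 0.27 ± 0.23 in WT (0.467). Its direction in Ahr-KO turned without Ahr-KO LT-HSC 7, to 0.055. Treml1 had 2.67, 6.26, 3.67, 1.97 and 4.22 CPM in Ahr-KO MPP, against 10.2, 13.3, 6.02, 12.6 and 7.14 CPM in Ahr-KO LT-HSC. It fell in Ahr-KO by 1.39 ± 0.33 (edgeR adjusted p = 0.00381), with Ahr-KO MPP 2 just inside the LT-HSC range. In WT it averaged 7.07 ± 3.36 CPM in MPP and 9.51 ± 1.84 CPM in LT-HSC and did not pass. Nbeal2 averaged 139 ± 24.2 CPM in Ahr-KO MPP against 167 ± 15.6 CPM in Ahr-KO LT-HSC, and 131 ± 31.3 CPM in WT MPP against 170 ± 88.6 CPM in WT LT-HSC (SD, n = 5 each). Thbs1 passed in neither genotype (edgeR adjusted p = 0.415 in Ahr-KO and 0.0550 in WT). In WT MPP it was called higher by DESeq2 (2.15 ± 0.75, adjusted p = 0.0210). It was also called higher without WT MPP 1, 4 or 5 or WT LT-HSC 5 (edgeR adjusted p = 0.0169, 0.0259, 0.0383 and 0.0405). WT MPP 2 and 3 held 83.7 and 247 CPM. With only Ahr-KO libraries in the fit Thbs1 was called lower in MPP (-0.97 ± 0.23, edgeR adjusted p = 0.00711).

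The von Willebrand factor receptor is built from Gp1ba, Gp1bb, Gp9 and Gp5, and all 4 genes fell in Ahr-KO MPP. Gp9 had 8.84, 9.36, 7.33, 11.1 and 15.0 CPM in Ahr-KO MPP, against 34.5, 38.9, 31.6, 40.1 and 34.6 CPM in Ahr-KO LT-HSC. It had 17.2, 13.1, 14.2, 15.9 and 8.65 CPM in WT MPP, against 37.7, 36.8, 34.9, 44.9 and 30.9 CPM in WT LT-HSC. The separation was wide in both, with log2 fold changes of -1.80 ± 0.19 in Ahr-KO (SE, edgeR adjusted p = 1.28e-06) and -1.42 ± 0.19 in WT (1.74e-05). Gp5 had 22.0, 17.3, 20.2, 19.8 and 34.7 CPM in Ahr-KO MPP, against 66.6, 74.2, 57.7, 76.7 and 75.2 CPM in Ahr-KO LT-HSC. It had 22.4, 27.9, 23.4, 29.0 and 19.8 CPM in WT MPP, against 104, 56.2, 71.5, 64.4 and 65.2 CPM in WT LT-HSC. The populations did not overlap, and Gp5 fell by 1.62 ± 0.19 in Ahr-KO (edgeR adjusted p = 3.80e-06) and by 1.56 ± 0.19 in WT (6.07e-06).

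The remaining chains of that receptor passed in Ahr-KO and missed the threshold in WT, and the difference between genotypes did not pass for either. Gp1ba had 2.88, 3.31, 3.82, 6.77 and 10.9 CPM in Ahr-KO MPP, against 14.2, 17.5, 10.5, 19.7 and 18.7 CPM in Ahr-KO LT-HSC, a log2 fold change of -1.53 ± 0.47 (SE, edgeR adjusted p = 0.0227). This call was lost without Ahr-KO MPP 1, 2 or 3 (edgeR adjusted p = 0.0590, 0.0584 and 0.0536) and without the filter on low counts (0.0532). In WT it ran from 1.16 to 10.7 CPM in MPP and from 4.94 to 18.6 CPM in LT-HSC. Gp1bb had 18.4, 18.1, 12.1, 17.6 and 14.2 CPM in Ahr-KO LT-HSC, all above the MPP values given earlier, and fell by 1.73 ± 0.27 in MPP (edgeR adjusted p = 1.07e-04). In WT LT-HSC it had 23.9, 10.1, 15.8, 10.4 and 18.1 CPM, overlapping WT MPP (-0.70 ± 0.26, edgeR adjusted p = 0.0643), and passed without WT LT-HSC 4 or 6 (0.0358 and 0.0371).

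Both chains of the fibrinogen receptor were lower in Ahr-KO MPP. Itga2b fell by 0.70 ± 0.14 in Ahr-KO (SE, edgeR adjusted p = 0.00111) and by 0.51 ± 0.14 in WT (0.0120), on the values given above, with Ahr-KO MPP 5 and WT MPP 1 reaching the LT-HSC ranges. Itgb3 had 72.1, 74.1, 76.6, 55.7 and 66.9 CPM in Ahr-KO LT-HSC, far above Ahr-KO MPP, and fell by 2.03 ± 0.36 (edgeR adjusted p = 3.41e-04). In WT LT-HSC it had 13.4, 68.1, 85.9, 64.2 and 67.3 CPM, and the low value of WT LT-HSC 1 lay below all WT MPP libraries (-0.67 ± 0.34, edgeR adjusted p = 0.183). Without that library Itgb3 was called lower in WT MPP (-0.93 ± 0.24, edgeR adjusted p = 0.00562). Cd9 had 137, 144, 129.7, 161 and 151 CPM in Ahr-KO LT-HSC, above all Ahr-KO MPP libraries, and fell by 0.92 ± 0.13 in MPP (edgeR adjusted p = 3.85e-05). In WT LT-HSC it had 243, 146, 148, 149 and 142 CPM, and it fell by 0.83 ± 0.13 (edgeR adjusted p = 1.13e-04). The collagen receptor gene Itga2 and Clec1b did not pass in either genotype.

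Of the agonist receptors, F2r had 48.3, 61.2, 40.8, 52.5 and 104 CPM in Ahr-KO MPP, against 196, 202, 148, 166 and 209.5 CPM in Ahr-KO LT-HSC. It had 80.0, 107, 80.2, 88.3 and 87.5 CPM in WT MPP, against 79.1, 191, 236, 155 and 192 CPM in WT LT-HSC, where WT LT-HSC 1 alone overlapped. It fell by 1.59 ± 0.25 in Ahr-KO (SE, edgeR adjusted p = 1.04e-04) and by 0.94 ± 0.24 in WT (0.00829). P2rx1 had 36.4, 30.0, 42.4, 52.5 and 61.6 CPM in Ahr-KO MPP, against 72.5, 79.3, 69.0, 93.9 and 85.5 CPM in Ahr-KO LT-HSC. It had 40.5, 44.8, 41.9, 41.1 and 35.6 CPM in WT MPP, against 44.1, 74.4, 75.9, 87.6 and 75.9 CPM in WT LT-HSC. WT LT-HSC 1 was again the overlapping library, and P2rx1 fell by 0.84 ± 0.18 in Ahr-KO (edgeR adjusted p = 0.00181) and by 0.81 ± 0.18 in WT (0.00260). F2rl2 and the ADP receptor gene P2ry1 did not pass in either genotype. With only Ahr-KO libraries in the fit P2ry1 was called lower in MPP (-0.96 ± 0.25, edgeR adjusted p = 0.0123).

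Signalling genes split. Gng11, a G protein gamma subunit gene, had 12.5, 17.1, 14.7, 19.5 and 17.99 CPM in Ahr-KO MPP, against 69.3, 62.5, 56.7, 78.9 and 73.2 CPM in Ahr-KO LT-HSC. It had 15.3, 18.7, 17.3, 24.2 and 20 CPM in WT MPP, against 112, 77.6, 66.4, 81.5 and 71.2 CPM in WT LT-HSC. It fell in both with no overlap, by 2.06 ± 0.16 in Ahr-KO (SE, edgeR adjusted p = 4.36e-08) and by 2.10 ± 0.16 in WT (2.71e-08). Rap1b had 287, 312, 262, 299 and 306 CPM in Ahr-KO MPP, against 466, 494, 407, 426 and 434 CPM in Ahr-KO LT-HSC. It had 349.7, 343, 321, 353 and 329 CPM in WT MPP, against 544, 368, 469, 409.9 and 414 CPM in WT LT-HSC. The falls were small but clear of the spread, 0.60 ± 0.09 in Ahr-KO (edgeR adjusted p = 7.01e-05) and 0.38 ± 0.09 in WT (0.00472).

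Plek went the other way. It had 132, 155, 170.5, 179 and 203 CPM in Ahr-KO MPP, against 119.7, 140.5, 114, 114 and 131 CPM in Ahr-KO LT-HSC, overlapping and short of the threshold (log2 fold change 0.44 ± 0.16, SE, edgeR adjusted p = 0.0557). It passed there with DESeq2 (0.43 ± 0.17, adjusted p = 0.0471) and with only Ahr-KO libraries in the fit (0.42 ± 0.11, edgeR adjusted p = 0.0125). It had 262, 247, 233, 209.7 and 162 CPM in WT MPP, against 77.2, 119.5, 160.4, 139 and 128 CPM in WT LT-HSC, and rose by 0.83 ± 0.16 (edgeR adjusted p = 9.11e-04). Mrvi1 had 0.101, 0.445, 0.366, 1.28 and 1.57 CPM in Ahr-KO LT-HSC, overlapping Ahr-KO MPP through Ahr-KO MPP 3 alone, and the difference did not pass (1.71 ± 0.81, edgeR adjusted p = 0.139). With only Ahr-KO libraries in the fit it was called higher in MPP (1.70 ± 0.57, edgeR adjusted p = 0.0388). It had 0.0950, 0.815, 4.68, 0 and 1.56 CPM in WT LT-HSC and rose in WT MPP by 2.44 ± 0.79 (edgeR adjusted p = 0.0318). That call was lost without WT MPP 2, 3 or 4 (edgeR adjusted p = 0.0596, 0.0603 and 0.0503), without WT LT-HSC 4 or 8 (0.0804 and 0.0630), without the filter on low counts (0.0730) and with only WT libraries (0.0813).

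Rgs18 had 204, 229, 153, 179 and 162 CPM in Ahr-KO MPP, overlapping Ahr-KO LT-HSC, and did not pass there. It had 175, 224, 197, 209 and 239.6 CPM in WT MPP and fell against WT LT-HSC by 0.61 ± 0.21 (SE, edgeR adjusted p = 0.0422), a comparison that includes the 604 CPM of WT LT-HSC 1. That call was lost without WT LT-HSC 1 (-0.25 ± 0.11, edgeR adjusted p = 0.104), without WT MPP 1, 3 or 4 (0.0803, 0.0800 and 0.0617), without the filter on low counts (0.0779) and with only WT libraries (0.121). The enzyme genes for prostaglandin and thromboxane both fell in both genotypes. Ptgs1, the cyclooxygenase that aspirin blocks in platelets, had 59.7, 60.1, 71.8, 65.8 and 86.9 CPM in Ahr-KO MPP, against 145, 141, 126, 161 and 167 CPM in Ahr-KO LT-HSC. It had 78.0, 76.0, 67.1, 83.2 and 49.5 CPM in WT MPP, against 139.5, 157, 154, 165 and 146 CPM in WT LT-HSC. Its falls were alike in size and free of overlap, 1.10 ± 0.13 in Ahr-KO (edgeR adjusted p = 4.92e-06) and 1.11 ± 0.13 in WT (5.13e-06). Tbxas1 had 81.2, 73.9, 65.0, 76.5 and 90.6 CPM in Ahr-KO MPP and 98.9, 70.6, 84.0, 81.0 and 78.2 CPM in WT MPP, far below its LT-HSC values. It fell by 1.45 ± 0.11 in Ahr-KO (edgeR adjusted p = 2.40e-08) and by 1.66 ± 0.11 in WT (3.67e-09), the smallest p of any member in each.

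Cavin2 had 8.98, 7.05, 3.41, 4.70 and 21.7 CPM in Ahr-KO MPP, against 76.2, 74.7, 63.0, 59.0 and 114 CPM in Ahr-KO LT-HSC. It had 17.1, 22.0, 18.5, 22.2 and 12.5 CPM in WT MPP, against 100.0, 65.2, 80.0, 84.2 and 82.3 CPM in WT LT-HSC. It was 8.41-fold lower in MPP in Ahr-KO (log2 fold change -3.07 ± 0.37, SE, edgeR adjusted p = 5.84e-06) and 4.46-fold lower in WT (-2.16 ± 0.35, adjusted p = 1.77e-04). Tubb1 had 1.052, 2.95, 1.1, 2.27 and 1.57 CPM in Ahr-KO MPP and did not pass there. With only Ahr-KO libraries in the fit it was called lower in MPP (-1.16 ± 0.34, edgeR adjusted p = 0.0219). It had 1.09, 1.59, 1.26, 0.0518 and 0.386 CPM in WT MPP, on 78 raw counts in all, and fell by 1.502 ± 0.52 in WT (edgeR adjusted p = 0.0422). That call was lost without WT MPP 1 or 5 (edgeR adjusted p = 0.0539 and 0.101), without WT LT-HSC 4, 5, 6 or 8 (0.0744, 0.0595, 0.0826 and 0.0769), without the filter on low counts (0.0678) and with only WT libraries (0.119). Nfe2 had 346, 349, 339, 363 and 366 CPM in Ahr-KO MPP, against 548, 494, 517, 513 and 552 CPM in Ahr-KO LT-HSC. It had 434, 371, 309.7, 362 and 348 CPM in WT MPP, against 914, 566, 535, 545 and 536 CPM in WT LT-HSC. It fell without overlap by 0.57 ± 0.12 in Ahr-KO (edgeR adjusted p = 0.00210) and by 0.76 ± 0.12 in WT (1.79e-04).

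**Figure D4:**
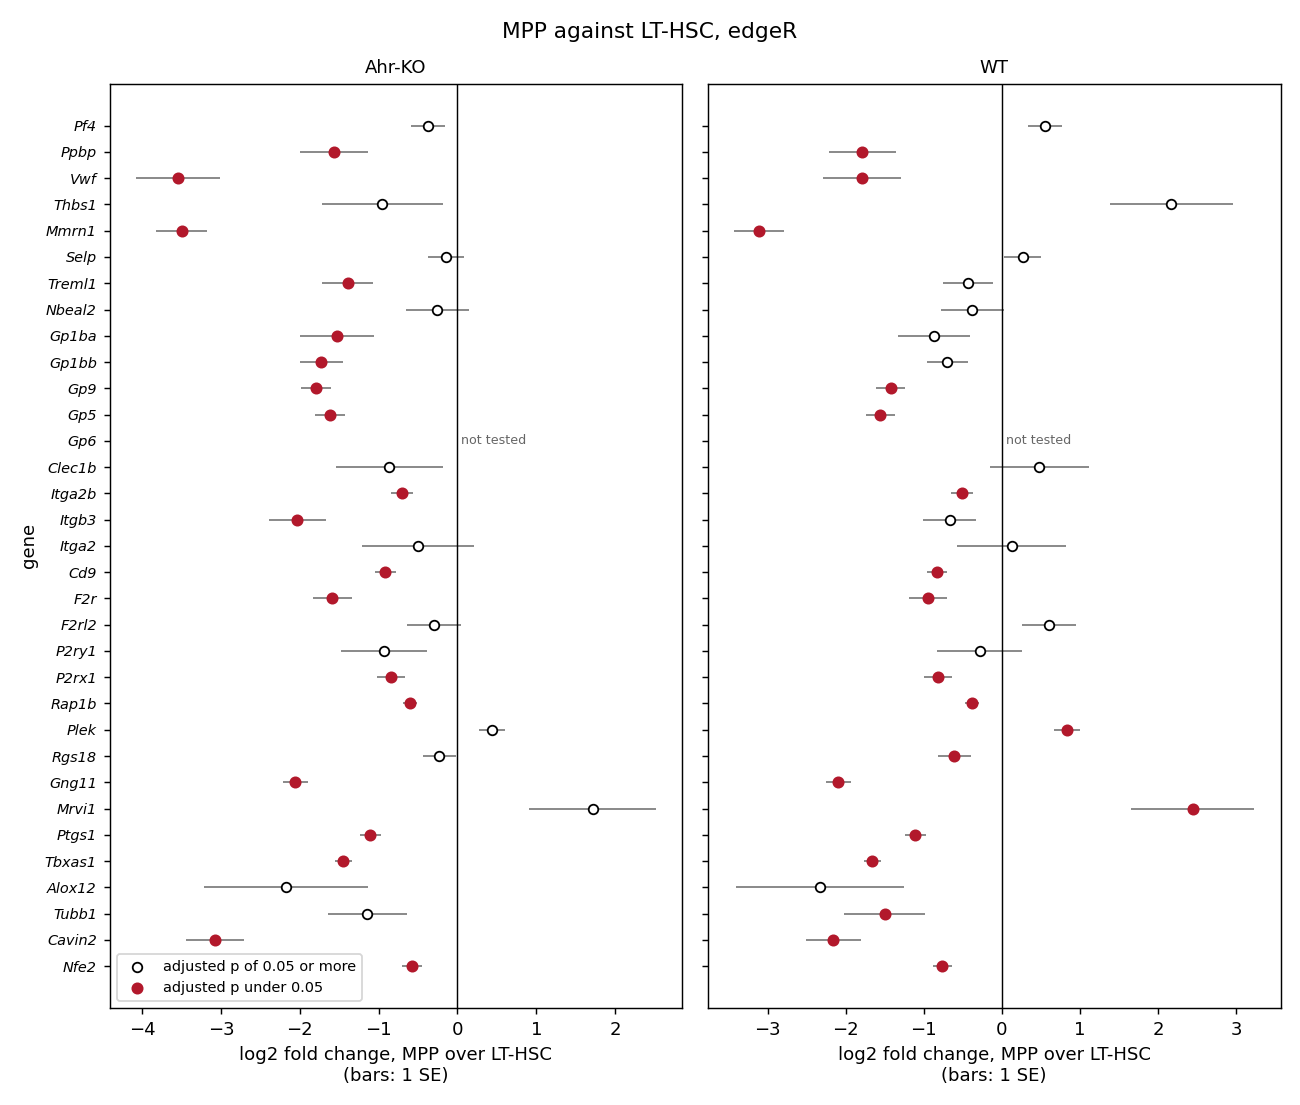
Points give the log2 fold change of each member, MPP over LT-HSC, in Ahr-KO on the left and in WT on the right, with bars of 1 SE and filled points at an edgeR adjusted p under 0.05. In each genotype 19 of 32 points are filled, all left of 0 in Ahr-KO, and in WT all but Plek and Mrvi1.

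Other genes of the pathway were read from 2 further lists. Of 16 regulators of megakaryocytes, 8 were called lower and 1 higher in Ahr-KO MPP, and 9 lower in WT MPP, where over all genes 10.7% were lower and 12.5% higher in Ahr-KO and 11.3% lower in WT. Gata2, a factor of stem cells and early megakaryocytes, fell by 1.27 ± 0.13 in Ahr-KO and by 1.37 ± 0.13 in WT (edgeR adjusted p = 6.91e-07 and 2.92e-07). Meis1, a homeobox factor of the same cells, fell by 0.92 ± 0.10 in Ahr-KO and by 0.93 ± 0.10 in WT (edgeR adjusted p = 2.02e-06 and 1.80e-06). Gfi1b fell by 1.40 ± 0.15 in Ahr-KO, and the ETS factor gene Fli1 by 0.87 ± 0.11 in WT (edgeR adjusted p = 1.59e-06 and 1.06e-05).

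Of 47 other platelet genes tested, 18 were called lower and 2 higher in Ahr-KO MPP, and 19 lower and 4 higher in WT MPP, against 10.7% of all genes lower and 12.5% higher in Ahr-KO and 11.3% lower and 11% higher in WT. The junction genes Esam, F11r and Jam3 fell in both genotypes. Esam, for example, averaged 40.2 ± 10.9 CPM in Ahr-KO MPP against 158 ± 18.7 CPM in Ahr-KO LT-HSC, and 38.0 ± 7.33 CPM in WT MPP against 156 ± 8.90 CPM in WT LT-HSC (SD, n = 5 each). Rasgrp2, whose product loads Rap1b with GTP, rose in MPP, by 1.26 ± 0.11 in Ahr-KO and by 1.19 ± 0.11 in WT (edgeR adjusted p = 2.01e-07 and 3.80e-07), while Rap1b itself fell.

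WT LT-HSC 1 enters every WT result on LT-HSC, and its departures went with exonic length. Of 27 members averaging at least 5 CPM in WT LT-HSC, 11 lay below, 8 above and 8 within the range of the other 4 WT LT-HSC libraries. The same shares over all genes were not counted, so these numbers do not set the members apart from other genes. Vwf, with 16.064 kb of exon, had 10.97 CPM in that library against 133.9 to 200.5 CPM in the others, and Nbeal2, with 9.554 kb, had 14.3 CPM against 188.4 to 230.7 CPM. P2ry1, with 4.291 kb, had 0.190 CPM against 11.15 to 18.57 CPM. The members above the range, among them Rgs18, Cd9, Gp5 and Nfe2, all had under 3.5 kb. Length did not order every member, since Tbxas1 with 9.094 kb and Itga2b with 5.454 kb lay within the range and Gp1ba with 2.718 kb lay below it. Across the 27 members the Spearman correlation of length with the relative level was -0.601, given as a description of a single library. Over all genes the medians were 0.51 on the log2 scale from 1 to 2 kb and -0.90 over 8 kb. Members up to 3.336 kb had a median of -1.395 between Ahr-KO MPP and LT-HSC and of -0.826 in WT, and longer members -0.936 in Ahr-KO and -0.376 in WT. Without WT LT-HSC 1, 21 of 32 members were called between WT MPP and WT LT-HSC, 19 lower and 2 higher, while calls over all genes numbered 5323 against 3876 with it. Rgs18 was then no longer called, and Itgb3, Nbeal2 (-0.67 ± 0.15, edgeR adjusted p = 0.00182) and Alox12 (-2.65 ± 0.95, 0.0402) were called lower. Without Ahr-KO LT-HSC 2 and 3 the same 19 members were called lower between Ahr-KO MPP and Ahr-KO LT-HSC.

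**Figure D5:**
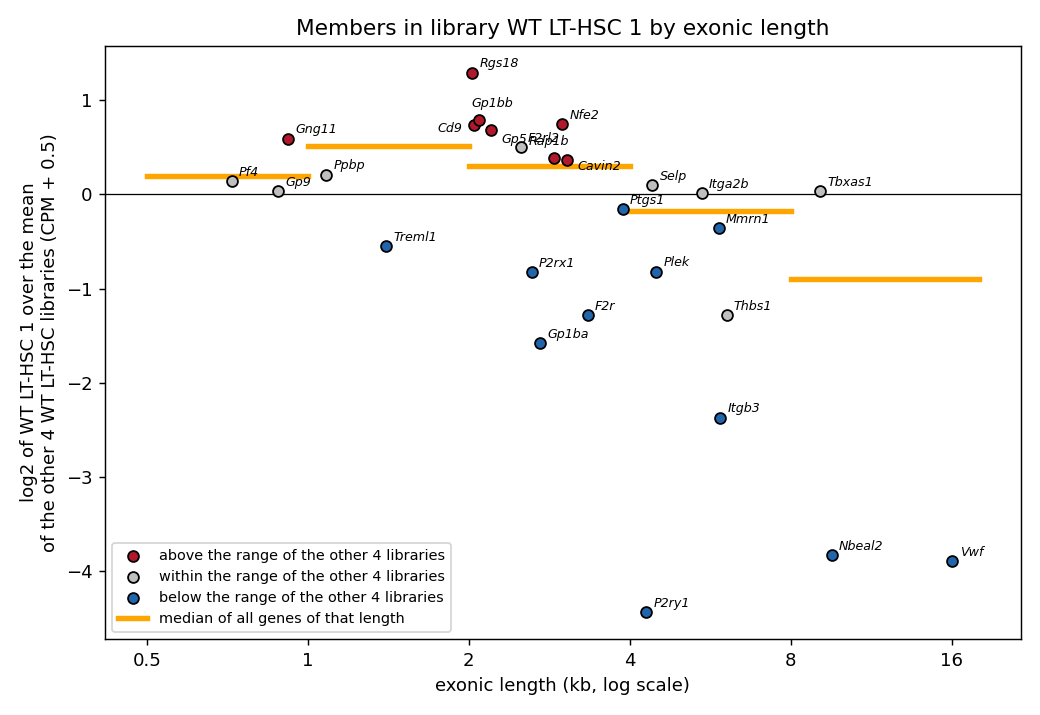
Each point is a member, with exonic length in kb on a log axis and the log2 ratio of its level in WT LT-HSC 1 to the mean of the other 4 WT LT-HSC libraries (CPM + 0.5) on the vertical axis. Colour tells whether it lies above, within or below their range, orange lines are the medians of all genes in 5 bins of length, and Vwf, Nbeal2 and P2ry1 lie lowest.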

How the data were processed

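The authors deposited raw counts for 49568 gene symbols, the same in a table for each population, with 1 column per library and 0 columns unused. Tools named in the submitters' processing notes are featureCounts of Subread 1.5.0p3, the aligner STAR 2.5.2b, the trimmer Trimmomatic 0.36 and DESeq2 1.12.4, on GRCm38.p5. Settings and annotation are not given in these sources. The kit (TruSeq, poly(A), unstranded) is taken from the labels' protocols, a passage that speaks of dendritic cells and other sample numbers. Of the symbols, 26 had become dates (at most 0.156% of a library's counts) and stayed in.

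The members and lists were chosen with earlier results of these data known. Counts were tested with edgeR 4.0.16 in R 4.3.3 (filterByExpr, TMM, robust quasi-likelihood F test, two-sided, Benjamini-Hochberg over all genes tested), with calls at an adjusted p below 0.05. Ahr-KO and WT were compared on the 10 libraries of a population, MPP and LT-HSC and the difference of effects in 1 fit of all 20 libraries. The SE is the log2 fold change divided by the root of F. CPM rest on TMM totals of all 20 libraries. Values under 1 CPM rest on few reads, counting error alone understates the error, and the biological coefficient of variation was 29.2% in MPP, 32.5% in LT-HSC and 33.8% in all. Coordinates and exonic lengths are from GENCODE (GRCm38). Exonic length is that of all annotated exons of a gene merged, which can exceed the length of the transcript expressed. Members named with a test are those called, those with the 6 smallest p-values in each Ahr-KO comparison, the 3 smallest for the difference of effects, and Pf4, Ppbp, Vwf, Itga2b and Selp. Some members called only in an alternative are named with it. Of each further list up to 4 called genes were named, or the gene with the smallest p, and 1 gene that this rule names is not reported here. Gene sets got no test. The fitting code was tested on simulated data. Alternatives were DESeq2 size factors, no filter, DESeq2 1.42.0, other samples in the fit, each replicate left out, a replicate block, and leaving out Ahr-KO LT-HSC 2 and 3.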

Additional observations from a re-analysis of the deposited data

Results flagged for a closer look

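For 18 members, 70 sets of 5 libraries were checked for a library far from the rest of its group. Such a library was found in 5 of the 70 sets, near the 1 in 20 that chance gives. These flags alone therefore do not show more than chance. Itga2b was at 226 CPM in Ahr-KO MPP 5, against 118 to 148 CPM in the other Ahr-KO MPP libraries. Itga2b was at 242 CPM in WT MPP 1, against 185 to 198 CPM in the other WT MPP libraries. Gp1bb was at 7.0 CPM in WT MPP 5, against 9.99 to 10.6 CPM. Rgs18 was at 604 CPM in WT LT-HSC 1, against 233 to 261 CPM elsewhere in WT LT-HSC, and Cd9 was at 243 CPM in the same library, against 142 to 149 CPM.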

How the results depend on the processing

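Between Ahr-KO and WT MPP, where 5 genes and 1 member were called, DESeq2 size factors gave 3 genes and 0 members, DESeq2 50 genes and 3 members, and all libraries in 1 fit 0 members. Leaving out 1 library gave 0 to 4 genes and 0 to 1 members. Between Ahr-KO and WT LT-HSC, where 1 gene and 0 members were called, DESeq2 size factors gave 3 genes, no filter 4, all libraries in 1 fit 14, and DESeq2 149 genes and 2 members. Leaving out 1 library gave 0 to 203 genes, the 203 without WT LT-HSC 1. For the difference of effects DESeq2 called 51 genes where edgeR called 0. Between Ahr-KO MPP and LT-HSC, a fit of only the Ahr-KO libraries gave 4903 genes and 24 members, 22 lower and 2 higher. With all 20 libraries these were 4041 genes and 19 members. Between WT MPP and LT-HSC, a fit of only the WT libraries gave 2711 genes and 16 members, against 3876 and 19. Selp between MPP and LT-HSC in Ahr-KO ran from -0.308 to 0.055 when 1 library was left out.

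The labels do not say what a replicate number marks, so the numbers were not taken as pairs. Deviations of same-numbered libraries correlated at -0.291 to 0.0658 in the Ahr-KO against WT comparisons and at -0.131 to 0.0458 between WT MPP and LT-HSC. Between Ahr-KO MPP and LT-HSC they correlated at 0.0281, 0.0990, 0.173 and 0.253, and 3 of 4 libraries matched their own number best, which is a hint from the data, not the design. With the number as a block, Ahr-KO against WT gave 0 genes in LT-HSC and 0 genes and 0 members in MPP, and the difference of effects 0. MPP against LT-HSC gave 4679 genes and 24 members in Ahr-KO, Pf4 then among them (-0.73 ± 0.10, edgeR adjusted p = 0.00309), and 113 genes and 1 member in WT, on 3 shared numbers. Directions turned in the block for Itga2b between Ahr-KO and WT LT-HSC (0.029), Selp between MPP and LT-HSC in Ahr-KO (0.013) and in WT (-0.003), and Thbs1 in the difference of effects (0.029), each near 0; the cause was not tested. Depth limits members under 1 CPM.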
